A study of Rattus norvegicus with 9 samples.

Results

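Fatty acid-binding proteins (FABPs) are small cytosolic carriers that hold long-chain fatty acids and pass them to enzymes, membranes and nuclear receptors. Each tissue uses its own isoform, and the normal hepatocyte relies on the liver-type protein encoded by Fabp1. Lipids reach the cell through membrane proteins such as CD36 or after lipases have cut the triglycerides of circulating lipoproteins, a step done by hepatic lipase (Lipc) in the liver and by lipoprotein lipase (Lpl) in fat and muscle, and surplus lipid is stored in droplets coated by perilipin 2 (Plin2).

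The genes described were 10 genes chosen by name, namely Fabp1, Fabp2, Fabp3, Fabp4, Fabp5, Fabp7, Cd36, Lpl, Plin2 and Lipc, and 9 of the 10 had a row among the 32883 genes of the deposited table. No row carried the name Cd36. Fabp1 and Lipc were taken as the liver-type genes. Fabp2 (intestinal type), Fabp3 (heart type), Fabp4 (adipocyte type), Fabp5 (epidermal type), Fabp7 (brain type) and Lpl were taken as genes typical of other tissues, and Plin2 as a gene of many tissues.

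Liver mRNA came from 9 male Sprague-Dawley rats, each with a library of its own, in 3 groups of 3. Normal control rats (N1, N3 and N12) received no carcinogen. DEN model rats (M13, M17 and M24) were injected intraperitoneally every week with 0.01% diethylnitrosamine (DEN), a liver carcinogen, in a schedule of 16 weeks, and PZH administration rats (G27, G28 and G42) had the same DEN schedule together with Pien-Tze-Huang (PZH), a traditional Chinese formula. In the labels the M rats carry the treatment value PZH too, and they were placed in the DEN model group by the letter of their title and the study's methods. The methods name a low and a high PZH dose, and state that rats of each group were killed at several time points up to week 16. Which dose each G rat received is not given in the sources used here. Nor are the age and the week of collection of any of the 9 rats.

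Total counts ranged from 14922973 to 16641954 per rat, apart from G27 with 27161496. Values are given as CPM, counts scaled to a common library size with edgeR's TMM factors, when a gene is compared between rats, and as deposited FPKM, which also divides by gene model length, when genes are compared with each other. The factors were 0.731 to 0.799 for the N rats, 1.21 to 1.58 for the M rats and 0.863 to 0.941 for the G rats. Without them the median log2 fold change of all tested genes moved from 0.03 to 0.90 in the DEN comparison and from 0.01 to -0.67 in the PZH comparison, so each direction below is relative to the TMM scaling. A floor of 3 counts corresponded to 0.125 to 0.252 CPM, which covers counting error only. A gene was counted as changed when its adjusted p was under 0.05 by the quasi-likelihood test of edgeR, adjusted after Benjamini and Hochberg over every gene tested. With 3 rats a group, these p-values weigh each group difference against the spread between the sequenced rats, which edgeR moderates across genes.

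The labelled tissue was checked on 10 hepatocyte markers, all of which were detected in every group. Albumin (Alb), the most abundant of them, was at a mean of 94905 CPM in normal control, 21962 CPM in DEN model and 81026 CPM in PZH administration rats. Transferrin (Tf), the next in the DEN model, was at 36446, 18252 and 37213 CPM on average in the same order. Summed over the 10 markers, hepatocyte transcripts amounted to 163329 to 171936 CPM in normal control rats, 32418 to 76217 CPM in DEN model rats and 130275 to 170960 CPM in PZH administration rats. Of the 10, 6 fell in the DEN model, as did 20.5% of all tested genes, and 4 rose after PZH, as did 8.72% of all. M24 stood apart from the other DEN rats in some intestinal genes. The mucin gene Muc13 was counted 1, 0 and 1871 times in M13, M17 and M24, and the intestinal transcription factor gene Cdx2 16, 2 and 422 times, both picked from the marker list after their values had been seen. Of the other markers on that list, Cdx1, Lgals4 and Cdh17 were also highest in M24. Vil1 did not set M24 apart (21.98, 4.31 and 22.45 CPM in M13, M17 and M24). Apoa4 was lowest in M24 (50.9, 106.5 and 23.3 CPM in the same order), and Alpi had 0 counts in all rats. Results that rest on the DEN rats are therefore also given without M24 where its absence ended a call. Without it 7 of the 9 genes remained changed in the DEN comparison, where 4983 of all genes did. In the PZH comparison 0 of 9 tested genes and 725 of all genes changed without it. There 4 of the 9 had an unadjusted p under 0.05 in edgeR's test, a level at which all genes were not counted. In bulk liver, fewer cells of a type and less RNA per cell cannot be told apart.

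Upstream sequences of the liver-type genes Fabp1 and Lipc are shown because both genes fell in the DEN model and rose with PZH. They are the 250 bases before the RefSeq gene start in the GRCr8 assembly, at chr4:104749090-104749339 on the plus strand for Fabp1 and at chr8:80516286-80516535 on the minus strand for Lipc, printed 5′ to 3′ with matches of the nuclear receptor and HNF1-type motifs in capitals.
Fabp1: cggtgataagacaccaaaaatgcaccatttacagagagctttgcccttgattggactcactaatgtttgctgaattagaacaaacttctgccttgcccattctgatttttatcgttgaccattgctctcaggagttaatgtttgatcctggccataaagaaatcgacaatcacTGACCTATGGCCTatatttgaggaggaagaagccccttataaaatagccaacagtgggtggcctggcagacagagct
Lipc: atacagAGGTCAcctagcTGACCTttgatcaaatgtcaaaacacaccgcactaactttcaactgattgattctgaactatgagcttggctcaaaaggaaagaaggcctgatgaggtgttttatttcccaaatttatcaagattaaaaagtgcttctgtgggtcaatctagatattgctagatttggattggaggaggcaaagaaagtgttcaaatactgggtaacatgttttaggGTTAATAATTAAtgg

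The motifs were chosen after these sequences had been read, and each was searched on both strands in 33469 RefSeq upstream windows of the same length. AGGTCA, the core hexamer that many nuclear receptors recognise, occurred in 14.1% of the windows. The direct repeat AGGNCA, any 1 base, AGGTCA, the arrangement that PPAR-RXR dimers and HNF4 bind, occurred in 0.0866% and includes the hexamer. GTTAAT and ATTAA with any 1 base between them, the type that HNF1 proteins bind, occurred in 0.0448%. TATAAA, the core of the TATA box, occurred in 12.9% and was found in the Fabp1 window from 40 to 35 bases before the start, left in lower case. The Fabp1 window held the direct repeat on the reverse strand, from 77 to 65 bases before the start. The Lipc window held the hexamer in both orientations and the HNF1-type motif from 15 to 4 bases before the start. A window was on hand for 6 of the 9 genes with counts. Among the other 4 (Fabp2, Fabp3, Fabp7 and Plin2) the hexamer was matched in Fabp7 alone, and the direct repeat and the HNF1-type motif in none. A match of letters is a description and not a binding site.

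In normal liver Fabp1 was by far the most abundant of the 9 genes per length, at 1748 ± 535 FPKM (SD, n = 3). Plin2 at 166 ± 65.4 FPKM and Lipc at 154 ± 9.34 FPKM (SD, n = 3 each) came next and did not differ beyond their spread. Fabp7 followed at 45.2 ± 20.1 FPKM, then Fabp5 at 5.26 ± 1.59, Fabp2 at 4.05 ± 1.46 and Lpl at 3.45 ± 1.08 FPKM, whose ranges overlapped, and Fabp4 at 1.07 ± 0.466 and Fabp3 at 0.832 ± 0.0540 FPKM were lowest (SD, n = 3 each). In the DEN model the order was Fabp1 (142 ± 98.5 FPKM), Plin2 (125 ± 8.17), Lpl (78.2 ± 26.4), Fabp5 (49.5 ± 24.6), Fabp4 (37.5 ± 21.7), Lipc (35.2 ± 9.37), Fabp7 (28.9 ± 16.3), Fabp2 (11.6 ± 4.50) and Fabp3 (1.2 ± 0.541), all as mean FPKM ± SD with n = 3. The range of Fabp1 overlapped those of Plin2 and Lpl there, while every DEN rat had less Lpl than any had Plin2. The ranges of Fabp5, Fabp4, Lipc and Fabp7 overlapped.

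The comparison of DEN model with normal control rats asked which genes go with the disease that DEN produces. All 9 genes had enough counts to be tested, and 7 changed, where 45.8% of all 14255 tested genes did. Fabp4, Fabp5 and Lpl rose (25.3% of all genes rose), and Fabp1, Lipc, Fabp7 and Plin2 fell (20.5% of all genes fell). With library totals in place of TMM factors 4 rose and 2 fell. The median log2 fold change of the 9 genes was -0.30 beside 0.03 for all genes tested. The study's screening criteria, a log2 fold change beyond 2 in either direction and an unadjusted p under 0.001, were met by 5 of the 9, with Fabp4, Fabp5 and Lpl higher and Fabp1 and Lipc lower, and by 12.3% of all genes (8.81% higher and 3.49% lower). The groups did not overlap in the 7 changed genes, nor in 58.8% of all genes.

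**Figure D1:**
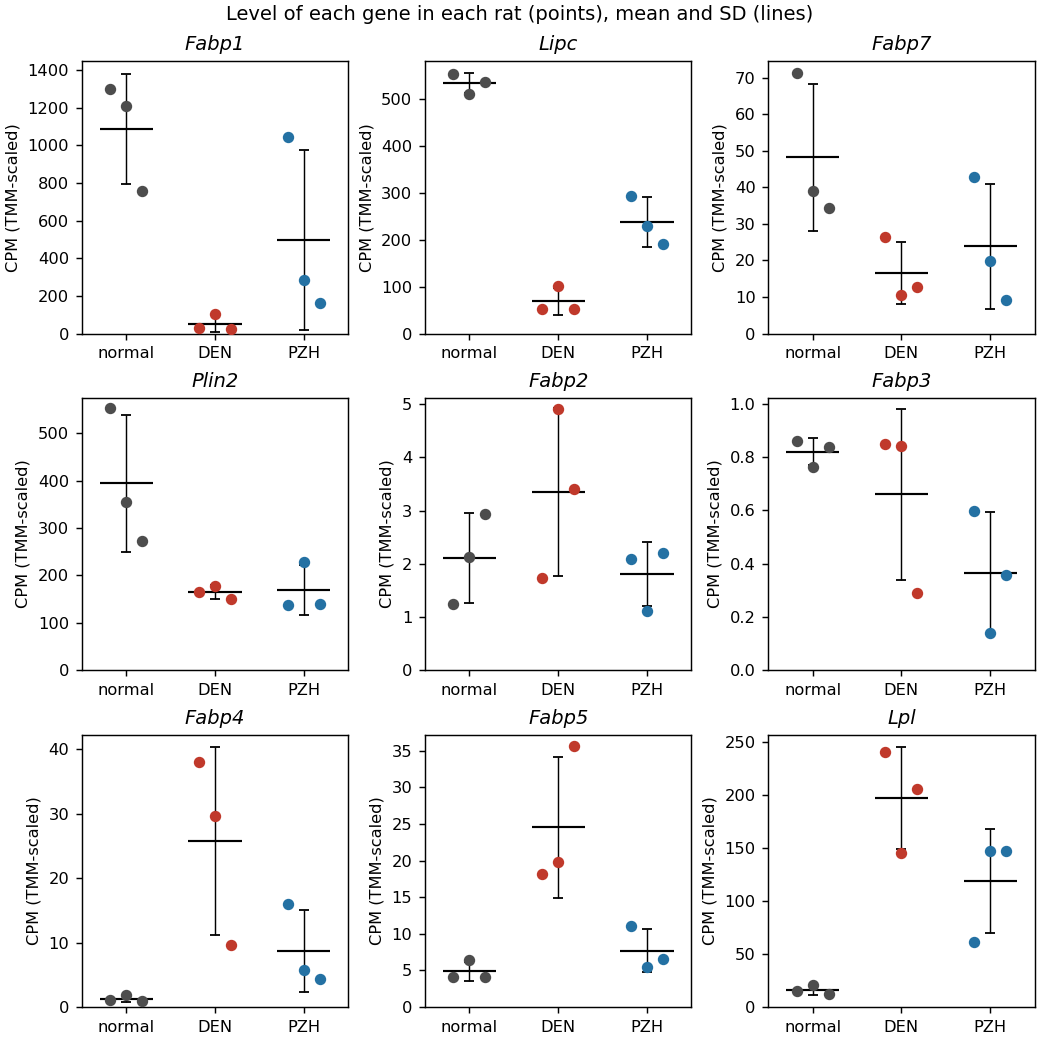
TMM-scaled CPM (vertical axes, linear and starting at 0) of the 9 genes in each N, M and G rat, with 1 point per rat, and the mean and SD of 3 rats as lines. Fabp1 and Lipc drop in the DEN rats and are higher in the PZH rats, whereas the group means of Lpl, Fabp4 and Fabp5 are highest in the DEN model. Points of DEN and PZH rats overlap in Lpl and Fabp4.

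Fabp1, which carries fatty acids through the hepatocyte cytosol, was at 1299, 1208 and 755 CPM in N1, N12 and N3, at 29.8, 102 and 24.6 CPM in M13, M17 and M24, and at 1041, 286 and 160 CPM in G27, G28 and G42. Every DEN rat was below every normal rat, and every PZH rat was above every DEN rat. The log2 fold change was -4.36 in the DEN model (SE 0.61, adjusted p = 0.00089, edgeR quasi-likelihood test), a level 20.5-fold lower. Leaving out each rat in turn gave -5.30 to -4.00, with the call kept in 6 of 6 fits.

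Lipc, the hepatic lipase that trims triglycerides and phospholipids of lipoproteins in the liver sinusoid, was at 554, 511 and 535 CPM in N1, N12 and N3, at 51.2, 101 and 53.0 CPM in M13, M17 and M24, and at 294, 229 and 190 CPM in G27, G28 and G42. The 3 groups formed 3 separate ranges, with the PZH rats between the DEN and the normal rats. Its log2 fold change in the DEN model was -2.94 (SE 0.32, adjusted p = 0.00032, edgeR quasi-likelihood test), and the call held in 6 of 6 fits that left out a rat.

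Lpl, the lipase that releases fatty acids from lipoproteins in fat and muscle, was at 14.99, 21.2 and 12.5 CPM in N1, N12 and N3, at 241, 146 and 206 CPM in M13, M17 and M24, and at 61.8, 147 and 148 CPM in G27, G28 and G42. It rose in the DEN model by a log2 fold change of 3.62 (SE 0.29, adjusted p = 0.00011, edgeR quasi-likelihood test), 12.3-fold. All DEN and PZH rats were above all normal rats. Within each rat the ratio of Lipc to Lpl FPKM, which does not depend on library scaling, was 50.7, 33.1 and 58.7 in N1, N12 and N3, 0.291, 0.953 and 0.352 in M13, M17 and M24, and 6.52, 2.13 and 1.76 in G27, G28 and G42. Lipc thus exceeded Lpl per length in every normal and PZH rat and was below it in every DEN rat.

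Fabp4, the adipocyte isoform that macrophages and capillary endothelium also make, was at 1.09, 1.91 and 0.923 CPM in N1, N12 and N3, at 38.0, 29.6 and 9.55 CPM in M13, M17 and M24, and at 16.0, 5.70 and 4.27 CPM in G27, G28 and G42. Fabp5, the epidermal isoform, also found in macrophages and many tumours, was at 4.14, 6.41 and 4.11 CPM, 18.2, 19.8 and 35.6 CPM, and 11.0, 5.50 and 6.55 CPM in the same rats. Both were higher in every DEN rat than in any normal rat. Without M24, the DEN rat highest in Fabp5, the log2 fold change of Fabp5 was 1.98. Fabp4 rose by a log2 fold change of 4.30 (SE 0.56, adjusted p = 0.00067) and Fabp5 by 2.34 (SE 0.33, adjusted p = 0.00096) in edgeR's quasi-likelihood test, and both calls held in 6 of 6 fits without a rat.

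Fabp7, the brain-type isoform, was the next FABP after Fabp1 in normal liver and moved down. It was at 71.3, 39.1 and 34.4 CPM in N1, N12 and N3, at 26.4, 10.6 and 12.7 CPM in M13, M17 and M24, and at 42.7, 19.8 and 9.18 CPM in G27, G28 and G42. Its log2 fold change in the DEN model was -1.52 (SE 0.39, adjusted p = 0.013, edgeR quasi-likelihood test). The fall rested on the scaling and on N1, since library totals gave -0.64 (adjusted p = 0.19 in the same edgeR test) and the fit without N1 gave -1.15 (adjusted p = 0.051).

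Plin2, the droplet coat protein found in most lipid-storing cells, was at 553, 356 and 273 CPM in N1, N12 and N3, at 166, 179 and 149 CPM in M13, M17 and M24, and at 138, 229 and 140 CPM in G27, G28 and G42. DEN and PZH rats overlapped, and both groups lay below the normal rats. Its fall in the DEN model, a log2 fold change of -1.23 (SE 0.28, adjusted p = 0.0076, edgeR quasi-likelihood test), was not called with library totals (-0.40, adjusted p = 0.24).

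Fabp2 and Fabp3 did not pass the test. Fabp2 was at 1.25 to 2.94 CPM in normal, 1.74 to 4.90 CPM in DEN and 1.11 to 2.21 CPM in PZH rats, ranges that overlapped, with a log2 fold change of 0.68 (SE 0.49, adjusted p = 0.29, edgeR quasi-likelihood test) in the DEN model. With library totals that value was 1.52 (adjusted p = 0.018, edgeR). Fabp3 had 2 to 20 reads in a rat, 0.763 to 0.859 CPM in normal, 0.291 to 0.849 CPM in DEN and 0.139 to 0.597 CPM in PZH rats, and its log2 fold change of -0.30 (SE 0.54, adjusted p = 0.68, edgeR) turned to 0.53 with library totals.

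The make-up of the FABP transcripts within a rat does not depend on library scaling. Fabp1 made up 96.5%, 97.5% and 96.5% of the summed FPKM of the 6 FABP genes in N1, N12 and N3, 37.6%, 71.4% and 37.8% in M13, M17 and M24, and 96.0%, 93.6% and 91.5% in G27, G28 and G42. The DEN rats lay below all others. Fabp5 took 15.4%, 9.27% and 36.7% and Fabp4 24.3%, 10.5% and 7.45% in M13, M17 and M24, whereas in normal rats Fabp5 took at most 0.353% and Fabp4 at most 0.0783%. Fabp7 took 19.4%, 4.32% and 11.4% in the same DEN rats, 1.84% to 3.09% in normal rats and 2.30% to 3.77% in PZH rats, so its share was higher in every DEN rat than in any other rat while its CPM was lower than in normal rats. The largest non-liver isoform was Fabp4 in M13 and M17 and Fabp5 in M24. In PZH rats Fabp5 took 0.685% to 2.52% and Fabp4 0.751% to 1.25%, above all normal rats and below all DEN rats. The summed level of the 6 genes was 1177 to 2201 FPKM in normal, 212 to 359 FPKM in DEN and 338 to 1926 FPKM in PZH rats, with M17 above G42. Unlike the shares, this sum depends on library scaling, and FPKM carry no TMM factor. On the TMM scale Fabp1, the largest part of the sum in both rats, was at 102 CPM in M17 and 160 CPM in G42.

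**Figure D2:**
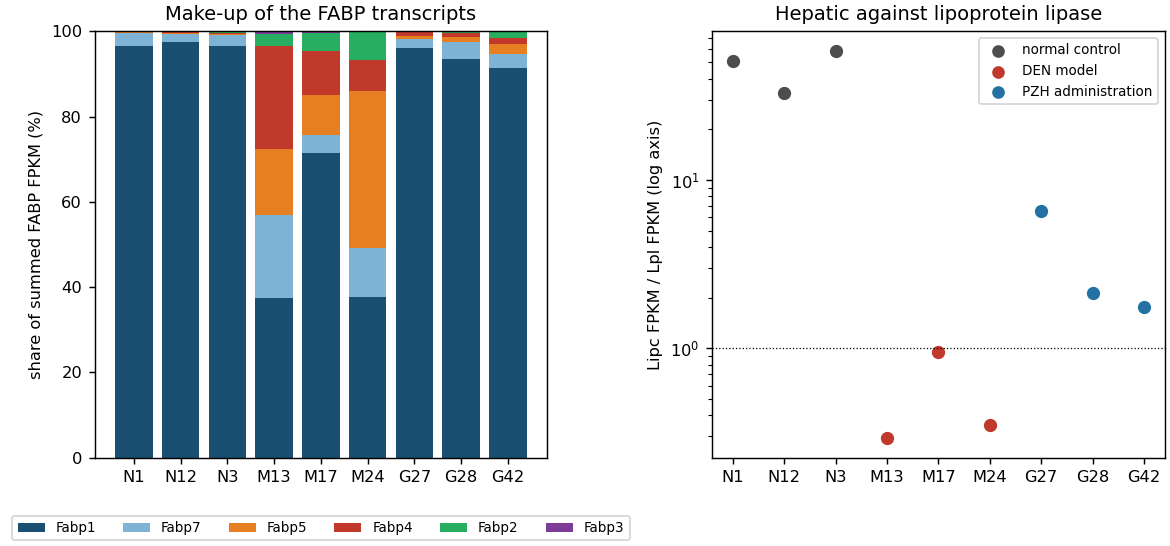
Left, share (%) of each isoform in the summed FPKM of the 6 FABP genes, with 1 bar per rat. Right, ratio of Lipc to Lpl FPKM in each rat on a log axis with a dotted line at 1. Fabp1 fills at least 91.5% of every normal and PZH bar and 37.6% to 71.4% of the DEN bars, and the 3 DEN rats are the points below a ratio of 1.

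The comparison of PZH administration with DEN model rats asked which genes respond to the formula. Of the 8 genes with enough counts, 3 changed, where 19.1% of all 14272 tested genes did. Fabp1 and Lipc rose (8.72% of all genes rose) and Fabp5 fell (10.3% of all genes fell). With library totals 2 rose and 4 fell. Leaving out M13 or M24 left 0 changed and leaving out G28 left 1. In those fits 271, 725 and 1178 of all genes changed, in the order M13, M24 and G28. The median log2 fold change of the 8 genes was -0.33 beside 0.01 for all genes. The groups did not overlap in these 3 genes, nor in 40.9% of all genes. The study's screening criteria were met by 0 of the 8 genes with edgeR's quasi-likelihood test and by 2.43% of all genes (1.08% higher and 1.35% lower), by 1 with DESeq2 and by 1 with edgeR's exact test. An unadjusted p under 0.05 in the quasi-likelihood test was reached by 4 of the 8. All genes were not counted at that level, so this count has no share to stand beside. The DEN model rats enter both this comparison and the one with normal control rats.

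Fabp1 had a log2 fold change of 3.28 after PZH (SE 0.83, adjusted p = 0.031, edgeR quasi-likelihood test), 9.71-fold. G27 was within the range of the normal rats, while G28 and G42 were not, and the highest PZH rat was 6.52-fold above the lowest. The call was lost without G27 (2.11, adjusted p = 0.068), without G28 (3.57, adjusted p = 0.055), without M13 (3.0, adjusted p = 0.11) and without M24 (2.94, adjusted p = 0.099), all in edgeR's test.

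Lipc rose by a log2 fold change of 1.82 after PZH (SE 0.33, adjusted p = 0.014, edgeR quasi-likelihood test), 3.53-fold. The call was lost without M13 (1.65, adjusted p = 0.061) and without M24 (1.67, adjusted p = 0.05). Fabp5 fell by a log2 fold change of -1.64 (SE 0.36, adjusted p = 0.022, edgeR). Its call was lost without G28 (-1.44, adjusted p = 0.067), G42 (-1.51, adjusted p = 0.068), M13 (-1.82, adjusted p = 0.057) or M24 (-1.27, adjusted p = 0.068).

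Fabp4 had a log2 fold change of -1.52 after PZH (SE 0.61, adjusted p = 0.12, edgeR quasi-likelihood test), and G27 at 16.0 CPM lay above M24 at 9.55 CPM. Without G27 it was -2.34 (adjusted p = 0.046, edgeR), and DESeq2 called it with all rats (-1.52, adjusted p = 0.034). Lpl had -0.72 (SE 0.35, adjusted p = 0.19, edgeR), and G28 and G42 lay just above M17. With library totals Fabp4 (-2.20, adjusted p = 0.014), Lpl (-1.39, adjusted p = 0.022) and Fabp2 (-1.5, adjusted p = 0.028) were called lower in edgeR's test. The remaining values were -0.86 for Fabp2 (SE 0.47), 0.57 for Fabp7 (SE 0.55) and 0.06 for Plin2 (SE 0.25) on the log2 scale, none past the test, and those of Fabp7 and Plin2 turned negative with library totals, to -0.17 and -0.59.

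**Figure D3:**
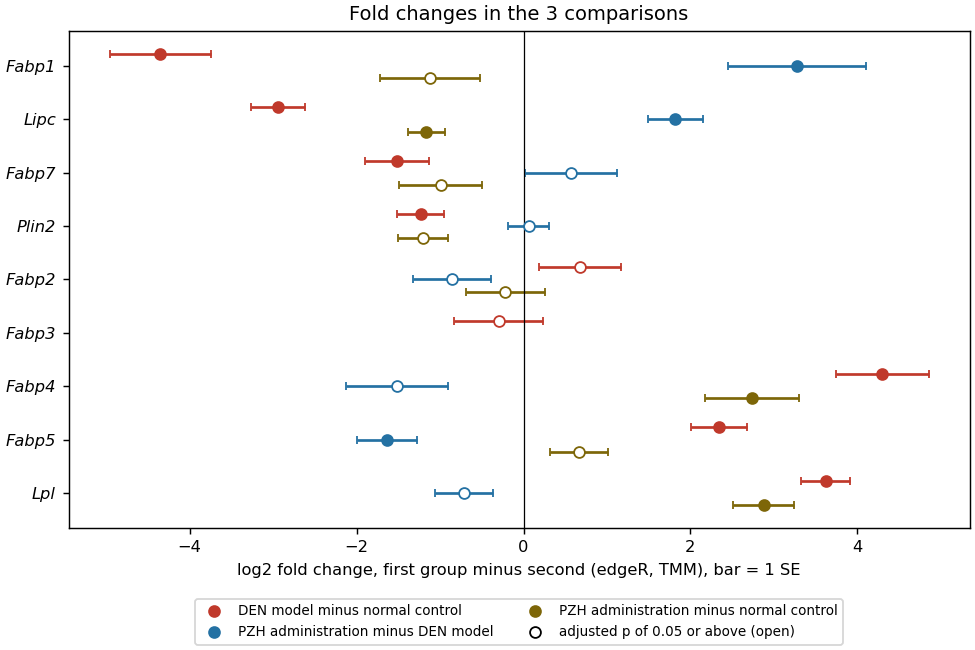
Log2 fold changes (horizontal axis, first group minus second, bars of 1 SE) of the 9 genes in the 3 comparisons by edgeR's quasi-likelihood test, filled where the adjusted p was under 0.05. Fabp1 and Lipc lie left of 0 in the DEN comparison and right of it in the PZH comparison, and Fabp4 and Lpl stay right of 0 in PZH against normal rats. Fabp3 was tested in the DEN comparison alone.

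How far the treated livers stood from normal was read from the PZH administration and normal control groups, a pair the study's methods do not list. Of 8 tested genes, 3 changed, where 5.21% of all 13348 genes did. Lpl was higher by a log2 fold change of 2.88 (SE 0.37, adjusted p = 0.0050) and Fabp4 by 2.73 (SE 0.56, adjusted p = 0.027), and Lipc was lower by a log2 fold change of -1.16 (SE 0.22, adjusted p = 0.019) in edgeR's quasi-likelihood test (4.07% of all genes were higher and 1.15% lower). Lpl and Fabp4 also met the study's screening criteria, as did 2.32% of all genes (2.16% higher and 0.165% lower). The groups of Lpl, Fabp4 and Lipc did not overlap, and neither did those of Plin2 (-1.21, SE 0.30, adjusted p = 0.055, edgeR) and of the untested Fabp3. That made 4 of the 8 tested genes without overlap, where the share of all genes was 24.2%. Fabp1 had -1.12 (SE 0.59, adjusted p = 0.37) with all rats and -2.28 (adjusted p = 0.0055) without G27, and Fabp7 had -0.99 (adjusted p = 0.34) and -1.73 (adjusted p = 0.030). Fabp5 had 0.67 (SE 0.35, adjusted p = 0.36) and Fabp2 -0.22 (SE 0.48, adjusted p = 0.87), all in edgeR's test.

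The Lpl call against normal rats held in 6 of 6 fits without a rat. That of Fabp4 was lost without G28 (2.97, adjusted p = 0.060), N1 (2.60, adjusted p = 0.11), N12 (3.09, adjusted p = 0.059) or N3 (2.56, adjusted p = 0.085). That of Lipc was lost without G28 (-1.13, adjusted p = 0.11), G42 (-1.03, adjusted p = 0.064), N1 (-1.16, adjusted p = 0.073) or N12 (-1.21, adjusted p = 0.055), all in edgeR's quasi-likelihood test.

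Rats of a group differed among themselves in several genes together. G27, the deepest library, was the highest PZH rat in Fabp1, Fabp4, Fabp5, Fabp7 and Lipc and the lowest in Lpl. M17 was the highest DEN rat in Fabp1 and Lipc and the lowest in Lpl. Beside this, the summed hepatocyte markers were at 170960 CPM in G27 against 138638 and 130275 CPM in G28 and G42, and at 76217 CPM in M17 against 45342 and 32418 CPM in M13 and M24. The summed bile duct markers were at 270 CPM in M17 against 670 and 790 CPM in M13 and M24. Mitochondrial genes took 4.89%, 5.89% and 10.46% of the counts in N1, N12 and N3 and 7.63%, 10.88% and 13.16% in G27, G28 and G42. In M13, M17 and M24 they took 9.82%, 10.35% and 10.5%. The part of these in the results was not tested.

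**Figure D4:**
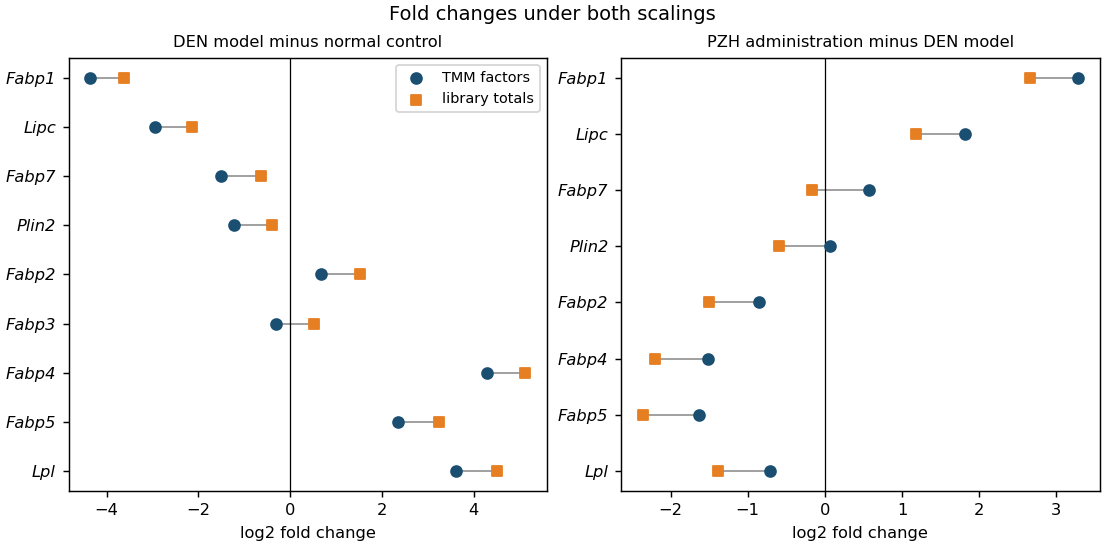
Log2 fold changes (horizontal axes) of the genes tested in the DEN comparison (left) and the PZH comparison (right) with TMM factors (circles) and with library totals (squares), edgeR's quasi-likelihood test. Fabp1, Lipc, Fabp4, Fabp5 and Lpl keep their side of 0 in both panels, whereas Fabp3 on the left and Fabp7 and Plin2 on the right cross it.

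In place of Cd36, the fatty acid translocase, the table lists overlapping CD36-like genes on chromosome 4 whose names differ. RGD1565355, described as similar to fatty acid translocase/CD36 and placed by the file at 14001761 to 14249749, was at 47.5, 66.2 and 69.7 CPM in N1, N12 and N3, at 363, 413 and 288 CPM in M13, M17 and M24, and at 90.1, 291 and 196 CPM in G27, G28 and G42. It rose in the DEN model by a log2 fold change of 2.55 (SE 0.26, adjusted p = 0.00025), had -0.87 after PZH (SE 0.39, adjusted p = 0.16) and stayed higher than in normal rats by 1.65 (SE 0.39, adjusted p = 0.045) in edgeR's quasi-likelihood test. LOC103690020, a platelet glycoprotein 4-like gene inside that interval, was at 1.68 to 4.43 CPM in normal, 6.18 to 7.17 CPM in DEN and 3.56 to 5.84 CPM in PZH rats. Reads of near-identical or overlapping copies may have been split, so both values are uncertain, neither gene was counted among the 9, and both were picked after the table had been searched.

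Other genes of lipid handling were read from lists of 13 fatty acid transporters and acyl-CoA synthetases, 14 other intracellular lipid-binding proteins, 13 droplet proteins, 15 lipases and their regulators, 8 lipoprotein receptors and 12 nuclear receptors and coactivators. In the DEN model these counts went mostly down. Of 10 tested transport and activation genes, 1 rose and 4 fell (median log2 fold change -1.05). Of 8 lipid-binding genes 1 rose and 6 fell (-1.33), of 10 droplet genes 0 rose and 7 fell (-1.58), of 14 lipase genes 1 rose and 8 fell (-1.37), of 8 lipoprotein receptors 3 rose and 5 fell (-0.54), and of 12 nuclear receptors 0 rose and 8 fell (-1.54), beside 25.3% higher, 20.5% lower and a median of 0.03 over all genes in edgeR's quasi-likelihood test. With library totals the higher and lower counts were 3 and 3, 1 and 3, 2 and 5, 3 and 6, 3 and 2, and 1 and 6 in the same order.

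Acsl1, the main acyl-CoA synthetase of hepatocytes, fell from 4484 ± 491 to 547 ± 186 CPM (SD, n = 3), a log2 fold change of -3.02 (adjusted p = 0.00064, edgeR). Slc27a5, a bile acid and fatty acid CoA ligase, had -3.38 (adjusted p = 0.0081), and Slc27a3, a low transporter gene, rose by 1.79 (adjusted p = 0.023). Among lipid-binding genes, Dbi, the acyl-CoA-binding protein, had -1.98 (adjusted p = 0.00042) and Scp2, a sterol carrier, -1.89 (adjusted p = 0.0027), while Rbp7, a retinol-binding relative of the FABPs, rose by 2.61 (adjusted p = 0.0075). G0s2, an inhibitor of droplet lipolysis, had -3.57 (adjusted p = 0.0029) and Cideb, a droplet protein of hepatocytes, -2.20 (adjusted p = 0.00096), all as log2 fold changes in edgeR's quasi-likelihood test.

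Among regulators of the lipases, Apoc3, which inhibits Lpl, and Apoc2, its cofactor, had log2 fold changes of -3.41 (adjusted p = 0.0023) and -3.36 (adjusted p = 0.0016) in edgeR's quasi-likelihood test. Gpihbp1, the anchor of Lpl on capillary endothelium, was counted 0, 4 and 3 times in N1, N12 and N3, 119, 18 and 27 times in M13, M17 and M24 and 4, 2 and 2 times in G27, G28 and G42. It rose in the DEN model (adjusted p = 0.017, edgeR) and fell after PZH (adjusted p = 0.021, edgeR). Of the receptors, Olr1, a scavenger receptor for oxidised LDL, rose from 0.734 ± 0.290 to 44.4 ± 35.7 CPM (log2 fold change 5.92, adjusted p = 0.00055), and Vldlr, which takes up triglyceride-rich particles, from 0.990 ± 0.539 to 30.0 ± 8.51 CPM (4.92, adjusted p = 0.00012), SD with n = 3 each, edgeR. Lrp1, the remnant receptor, had -1.5 (adjusted p = 0.0058). The nuclear receptor partners Rxrg and Rxra had -2.09 (adjusted p = 0.0018) and -1.94 (adjusted p = 0.0026), edgeR.

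After PZH, 3 of 10 transport and activation genes rose and 0 fell (median log2 fold change 0.43), 3 of 8 lipid-binding genes rose and 0 fell (0.98), 5 of 10 droplet genes rose and 0 fell (0.84), 7 of 14 lipase genes rose and 1 fell (0.89), 1 of 8 receptors rose and 3 fell (0.46), and 3 of 12 nuclear receptors rose and 0 fell (0.99), beside 8.72% higher, 10.3% lower and a median of 0.01 over all genes in edgeR's quasi-likelihood test. With library totals the higher and lower counts were 3 and 2, 1 and 1, 1 and 1, 5 and 2, 0 and 3, and 0 and 1. Acsl1 rose by a log2 fold change of 2.01 (adjusted p = 0.012), Apoc3 by 2.92 (adjusted p = 0.026), G0s2 by 2.08 (adjusted p = 0.043), Cideb by 1.58 (adjusted p = 0.040) and Scp2 by 1.38 (adjusted p = 0.024). Olr1 fell by a log2 fold change of -2.83 (adjusted p = 0.022) and Vldlr by -1.66 (adjusted p = 0.023), all in edgeR's test. Values for those that did not pass were 2.35 for Slc27a5, 2.1 for Apoc2, 1.56 for Dbi, 1.3 for Rxra, 1.05 for Rxrg, 0.90 for Lrp1, -0.68 for Slc27a3 and -1.77 for Rbp7. Against normal rats, Olr1 (3.07, adjusted p = 0.0096) and Vldlr (3.24, adjusted p = 0.0096) stayed higher and Acsl1 (-1.05, adjusted p = 0.043), G0s2 (-1.52, adjusted p = 0.049) and Rxrg (-1.08, adjusted p = 0.019) lower in edgeR's test. These list genes were not refitted without single rats, and the count of all genes changed after PZH fell from 2722 to 271 without M13 and to 725 without M24. With library totals 1 droplet gene was called higher after PZH, so G0s2 and Cideb did not both keep their calls.

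**Figure D5:**
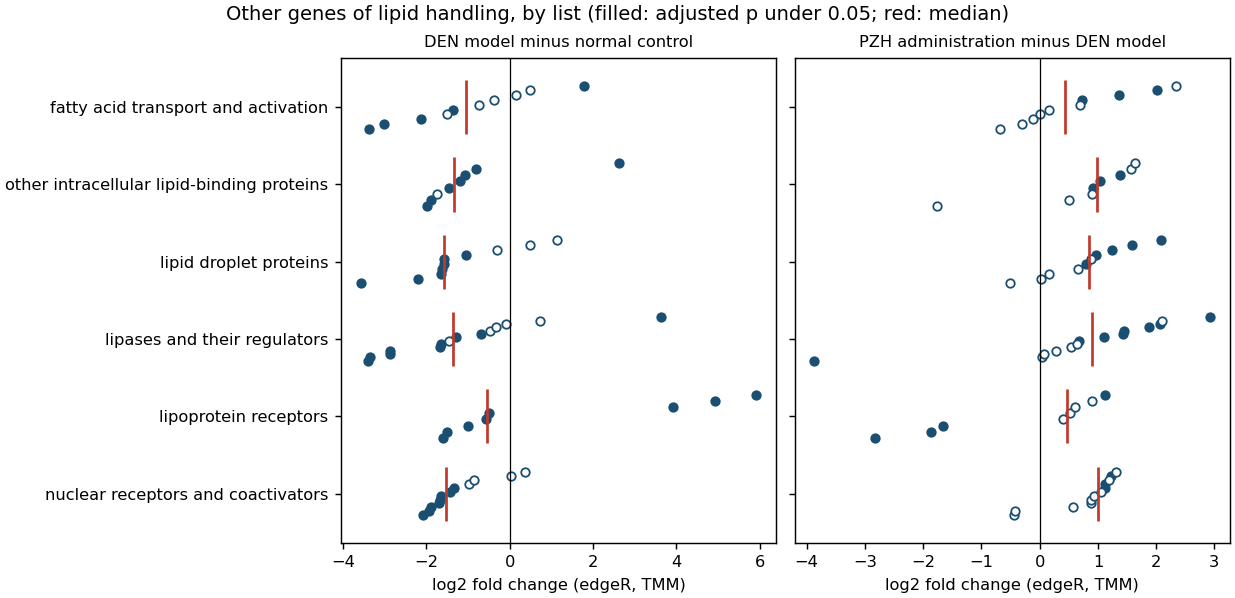
Log2 fold changes (horizontal axes, edgeR with TMM factors) of the tested genes in 6 lists of lipid handling in the DEN comparison (left) and the PZH comparison (right), with 1 point per gene, filled where the adjusted p was under 0.05, and the list median as a red line. List medians run from -1.58 to -0.54 on the left and from 0.43 to 0.99 on the right.

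Ppara and Hnf4a, whose proteins bind direct repeats of the kind in the Fabp1 window, were picked out after their values had been seen. Ppara was at 93.3 ± 3.51, 33.9 ± 14.5 and 78.2 ± 2.69 CPM (SD, n = 3 each) in N, M and G rats, with log2 fold changes of -1.44 (adjusted p = 0.0037) in the DEN model and 1.23 (adjusted p = 0.024) after PZH by edgeR. Hnf4a was at 863 ± 95.2, 273 ± 81.4 and 582 ± 31.8 CPM (SD, n = 3 each), with -1.64 (adjusted p = 0.0024) and 1.11 (adjusted p = 0.026). Both rises after PZH rested on the scaling. With library totals 0 of the 12 nuclear receptor and coactivator genes, a list that holds Ppara and Hnf4a, were called higher after PZH. Any link of these levels to Fabp1 was not tested. The adipocyte receptor gene Pparg had 0.02 (SE 0.35, adjusted p = 0.96) and -0.42 (SE 0.37, adjusted p = 0.46), edgeR, and was chosen in the same way.

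Genes with the most similar profile were ranked by the root mean square difference of centred log2 CPM over the 9 rats among 12759 genes with an official symbol. Nearest to Fabp1 were Igfals (0.30), the acid-labile subunit of the IGF complex in plasma, Irx1 (0.35), a homeobox gene, and Apoa4 (0.38), an apolipoprotein. Nearest to Fabp4 were Igfbp5 (0.59), an IGF-binding protein, Nectin4 (0.60), an adhesion molecule, and Dlgap1 (0.60). Nearest to Lpl were Itgbl1 (0.25), Kifc1 (0.29), a mitotic kinesin, and Cd276 (0.30), an immune checkpoint ligand. The points are 9 rats in 3 groups, so genes with group differences of like size rank near each other. Shared regulation was not tested.

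Markers of other cell types moved with the groups, and their part in the results was not tested. Over all tested genes, 25.3% rose and 20.5% fell in the DEN model, and 8.72% rose and 10.3% fell after PZH. The marker counts in this paragraph and the next stand beside these shares. All 8 bile duct markers rose in the DEN model and 7 fell after PZH, with a summed level of 30.6 to 43.0 CPM in normal, 270 to 790 CPM in DEN and 100 to 133 CPM in PZH rats, led by Krt19 and Epcam. Of 9 stellate and myofibroblast markers 7 rose and 7 then fell (251 to 350, 1048 to 2919 and 573 to 693 CPM), led by Col3a1 and Col1a1. Of 10 macrophage markers, genes of cells that can express Fabp4, Fabp5 and Lpl, 2 rose and 4 fell in the DEN model and 0 rose and 4 fell after PZH (651 to 1162, 670 to 880 and 342 to 766 CPM), all in edgeR's quasi-likelihood test. With library totals the balance of the macrophage markers in the DEN model turned, to 5 higher and 1 lower, and after PZH it was 0 and 4. Their lead genes by FPKM in the DEN model were Gpnmb and Clec4f. These were at means of 29.7 and 268 CPM in normal, 218 and 109 CPM in DEN and 71.75 and 161 CPM in PZH rats. Of 9 endothelial markers found in the table, 4 rose and 2 fell in the DEN model and 0 rose and 3 fell after PZH (381 to 486, 300 to 560 and 349 to 492 CPM), led by Lyve1 and Cdh5. With library totals these were 6 and 0, then 0 and 6.

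The defining adipocyte markers Lep, Plin1 and Retn were at 0 counts in all 9 rats, and Adipoq was at 0 in the normal rats and at 0.448 CPM on average in the DEN model. The 7 adipocyte markers summed to 24.6 to 54.2, 32.6 to 55.8 and 20.5 to 31.3 CPM in the 3 groups, led by Cfd and Cidea, and 0 rose and 1 of 3 tested fell in the DEN model, which turned to 2 higher and 0 lower with library totals. Of the 8 intestinal markers listed, Lgals4 was at 0 counts in the normal rats and at 34.6, 0.495 and 164 CPM in M13, M17 and M24. Apoa4, a liver gene in the rat too, was at means of 1246 CPM in normal and 60.2 CPM in DEN rats. In the DEN model 1 of 3 tested rose and 1 fell. Their summed level was 122, 122 and 580 CPM in M13, M17 and M24, 962 to 1960 CPM in normal and 389 to 1032 CPM in PZH rats. The 9 striated muscle markers summed to 0.0781 to 0.839, 5.81 to 10.1 and 1.21 to 2.35 CPM, led by Tnnt2 and Acta1, with Ckm, Mb and Myh6 at 0 counts in all rats and 2 of 3 tested genes higher in the DEN model. The 7 glia and Schwann cell markers summed to 7.72 to 15.3, 12.7 to 17.7 and 9.81 to 12.0 CPM, led by S100b and Mbp, and 1 of 4 tested rose and 1 fell in the DEN model in edgeR's quasi-likelihood test.

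Positions of the main genes, in the coordinates of the authors' file, whose genome build is not given in the sources used here, were chromosome 4, 99063181 to 99066954 for Fabp1 (ENSRNOG00000006675), chromosome 8, 77272570 to 77398248 for Lipc (ENSRNOG00000060338) and chromosome 16, 22537056 to 22561496 for Lpl (ENSRNOG00000012181). Fabp4 (ENSRNOG00000010805) lay on chromosome 2 at 93792601 to 93797305 and Fabp5 (ENSRNOG00000049075) on the same chromosome at 93981656 to 93985378. Fabp7 was on chromosome 20 at 40769586 to 40773349 and Plin2 on chromosome 5 at 104984414 to 105010857. Counts are summed over each gene.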

How the data were processed

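Liver mRNA libraries of 9 rats were analysed from the deposited table. The counts in it are whole reads per gene that the authors did not normalize. The FPKM values were scaled by the authors for length and library size, and in 99.5% of the 13881 genes with reads in every rat they equal the count divided by the total count and a fixed length to within 0.1%, so they carry no TMM factor. The submitters' processing notes name fastp, HISAT2 2.1.0, StringTie 1.3.3b and edgeR 3.30.3. The genome build, the read counter and the handling of strand are not given in the sources used here. The authors' own fold changes and P-values in the table were not used.

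After filterByExpr, counts were TMM-scaled and tested with edgeR 4.0.16 (glmQLFit and glmQLFTest, R 4.3.3) on the 6 rats of each of 3 comparisons, without covariates, at a Benjamini-Hochberg adjusted p under 0.05. The pipeline was tested on simulated data. The alternatives were DESeq2 1.42.0, edgeR's exact test, limma 3.58.1 on log2(FPKM + 1) and log2(FPKM + 0.1) for genes with a mean of at least 0.1 FPKM, library totals, no filter, at least 10 counts in every rat, all 9 rats in one fit, the study's criteria, a minimum log2 fold change of 1 in either direction, and leave-one-out fits.

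Named were the 10 genes, from each list of lipid handling the 2 highest and 2 lowest changed genes in the DEN comparison, the 3 genes nearest to Fabp1, Fabp4 and Lpl, and of each marker list the 2 most abundant genes in the DEN model. Of the genes this rule names, 1 is not reported here. The genes and lists were chosen with earlier results of these data known. Upstream sequences are from RefSeq (GRCr8), which had windows for 7 of the 10 genes. Genes with few reads are the least precise.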

Additional observations from a re-analysis of the deposited data

How the results depend on the processing

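No paired analysis was possible because the rats' numbers are not shared between groups. The number of changed genes was 6529 in the DEN comparison (1753 by the study's criteria, and 4724 to 6790 when a rat was left out), 2722 in the PZH comparison and 696 for PZH administration against normal control. In the PZH comparison it was 5504 and 5764 with limma on log2(FPKM + 1) and log2(FPKM + 0.1), 6252 with library totals and 347 by the study's criteria, and leaving out a rat gave 271 (without M13) to 3319 (without M17), with 725, 1178 and 1221 without M24, G28 and G42. Against normal control it was 1320 with DESeq2, 1310 with edgeR's exact test, 340 with at least 10 counts in every rat and 310 by the study's criteria, and 207 (without N1) to 1326 (without G27) when a rat was left out, with 212, 335, 361 and 432 without G28, N12, G42 and N3. Library totals turned the split of higher and lower genes from 3612 and 2917 to 8126 and 958 in the DEN comparison, from 1245 and 1477 to 556 and 5696 in the PZH comparison and from 543 and 153 to 818 and 91 in the third.

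Of the 9 lipid genes with a row, 7 changed in the DEN comparison (6 without N1, with limma on either FPKM scale and with library totals). In the PZH comparison 3 changed, 6 with limma on either FPKM scale and with library totals, and 0 by the study's criteria in edgeR's quasi-likelihood test, where DESeq2 and edgeR's exact test gave 1 each. Leaving out a rat gave 0 to 3, with 0 without M13 or M24. In those fits 4 had an unadjusted p under 0.05, a level at which all genes were not counted, and no other tool was run. Against normal control 3 changed, and 1 (without G28, N1 or N12) to 5 (without G27) when a rat was left out. The same direction and side of the threshold was kept by 286 of 349 alternative fits of single genes, 25 lost the call, 20 gained it and 18 turned the direction. These 18 were all of genes not called: in the DEN comparison Fabp3 at 0.23 and 0.38 (limma, FPKM + 1 and + 0.1), 0.53 (library totals) and 0.069 (without M24; leave-one-out range from -0.523), in the PZH comparison Fabp7 at -0.25, -0.27, -0.17 and -0.17 (without G27; range to 1.064) and Plin2 at -0.63, -0.64, -0.59, -0.21 (without G28) and -0.004 (without M24; range to 0.195), and against normal control Fabp2 at 0.023, 0.03, 0.024, 0.03 (without G28) and 0.12 (without N3; range from -0.51). The cause was not tested. Counts in place of FPKM moved the mean Fabp1 share from 96.8% to 95.0% in normal, from 48.9% to 38.5% in DEN and from 93.7% to 90.3% in PZH rats, and the mean log2 ratio of Lipc to Lpl from 5.53 to 5.07, from -1.12 to -1.57 and from 1.54 to 1.08. Depth limited Fabp3 most, with 2 to 20 reads per rat.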
